A study of Mus musculus with 6 samples.

Results

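Expression of 10 cartilage genes was followed through injured mouse carotid arteries: Acan, Comp, Matn1, Matn3, Hapln1, Chad, Ucma, Cytl1 and Epyc, which encode matrix or secreted proteins of cartilage, and Sox9, which encodes a transcription factor. The members were chosen by measured values: in an earlier look at these same arrays, cartilage genes read high on 1 array of each genotype. Every probe set annotated to 1 of these symbols alone was taken, which gave 17 of 45037 probe sets, for 10 of 18193 genes. Collagen genes were left out of the members.

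The arteries came from mice lacking IRF4 in the whole body (IRF4 KO) and from wild-type mice (WT), with 3 Affymetrix arrays of each genotype. IRF4 is an interferon regulatory factor best known in lymphocytes and macrophages. All mice of both genotypes had undergone wire injury, in which a wire drawn through the vessel strips its endothelium, and arteries were collected 14 days later. Each array held the pooled RNA of 3 to 5 vessels, and strain, age and sex were not given in the sources used here. Values are log2 probe set intensities after RMA, a procedure that subtracts background, normalizes between arrays and combines the probes of a set. IRF4 KO 1 and WT 3 stood apart from the other 4. Their poly-A spike-in controls, bacterial RNAs that are mixed into a sample ahead of labelling, averaged 5.14 and 4.93, against 7.35 to 9.26 on the other 4 arrays. They are called the 2 low spike-in arrays here. The Irf4 probe sets averaged 3.19 ± 0.15 and 3.57 ± 0.26 in IRF4 KO and 3.28 ± 0.30 and 3.64 ± 0.26 in WT (SD, n = 3), near or below the array medians of 3.94 to 4.12. The genotype labels could therefore not be checked from Irf4.

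Cartilage is made by chondrocytes, which embed themselves in a network of type II collagen filled with aggrecan. Aggrecan, the product of Acan, binds hyaluronan with the help of the link protein made from Hapln1, and its sulphated chains draw in the water that resists compression. SOX9 is the transcription factor that commits cells to this programme and switches on many of the matrix genes. In arteries, smooth muscle cells can take on chondrocyte-like features during calcification, and some of these genes, Acan and Comp among them, are also known from the arterial wall itself. In bulk RNA, a larger share of cells of a type and more of a transcript per cell cannot be told apart.

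Promoter sequence is shown for 3 members: Acan and Chad, which were high on the 2 low spike-in arrays and alike in pattern, and Cytl1, which was bright on all 6 arrays. Each run is the 250 bases before the transcription start in RefSeq (GRCm38.p6), 5′ to 3′, and capitals mark a TATAAA motif.
Acan, chr7:79052976-79053225, plus strand: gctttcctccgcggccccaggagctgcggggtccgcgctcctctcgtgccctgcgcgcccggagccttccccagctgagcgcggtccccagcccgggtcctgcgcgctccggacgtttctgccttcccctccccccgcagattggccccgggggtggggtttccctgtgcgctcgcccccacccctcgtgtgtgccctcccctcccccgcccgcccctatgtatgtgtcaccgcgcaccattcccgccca
Chad, chr11:94564797-94565046, plus strand: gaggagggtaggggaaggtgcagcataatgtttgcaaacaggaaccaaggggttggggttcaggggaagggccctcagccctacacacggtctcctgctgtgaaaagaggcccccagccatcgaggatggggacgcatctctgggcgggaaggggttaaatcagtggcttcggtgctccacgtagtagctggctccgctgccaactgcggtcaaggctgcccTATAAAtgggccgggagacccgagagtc
Cytl1, chr5:37735269-37735518, plus strand: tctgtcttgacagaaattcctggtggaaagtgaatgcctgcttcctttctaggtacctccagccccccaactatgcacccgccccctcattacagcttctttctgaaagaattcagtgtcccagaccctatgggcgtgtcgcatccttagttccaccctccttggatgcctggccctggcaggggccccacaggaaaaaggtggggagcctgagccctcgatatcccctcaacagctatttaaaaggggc

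Of these 3 windows, that of Chad held TATAAA, close to its start, and those of Acan and Cytl1 did not. The GC content was 74.4% in the Acan window, 60.4% in the Chad window and 54.8% in the Cytl1 window. RefSeq promoters were matched for 8 of the 10 members (9 windows, with 2 for Epyc). Over these 9 windows, TATAAA or its reverse complement TTTATA was found in 1, the one of Chad. Among all 32851 promoter windows of the same length, 12.4% held it. The core letters bound by SOX proteins, AACAAT or its reverse complement ATTGTT, were found in 2 of the 9 windows, both of Epyc, against 9.42% of all windows. A match describes these letters in this window and is not a binding site.

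Aggrecan and its link protein read high on the 2 low spike-in arrays. Acan was at 9.59 on IRF4 KO 1 and 9.78 on WT 3. On the other arrays Acan was at 5.96 on IRF4 KO 2, 5.29 on IRF4 KO 3, 6.19 on WT 1 and 5.54 on WT 2. Both low spike-in arrays were thus above all of the other 4, and the difference of the means was 3.94 log2 units, or 15.3-fold. The value of Acan in the other 4 arrays spread by an SD of 0.41 and was above the array median on each.

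Hapln1 had 4 probe sets, and on each of them both low spike-in arrays were above the other 4. On the brightest, 1438020_at, it was at 5.64 on IRF4 KO 1 and 6.02 on WT 3, against 2.07 and 2.57 on IRF4 KO 2 and IRF4 KO 3 and 2.81 and 2.26 on WT 1 and WT 2. The difference was 3.40 log2 units on this probe set and 1.39, 1.57 and 1.76 on the others. All 4 probe sets had the same direction. Their values on the other 4 arrays lay below the array medians, where RMA compresses differences, so that no fold is given and the sizes are not compared.

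**Figure D1:**
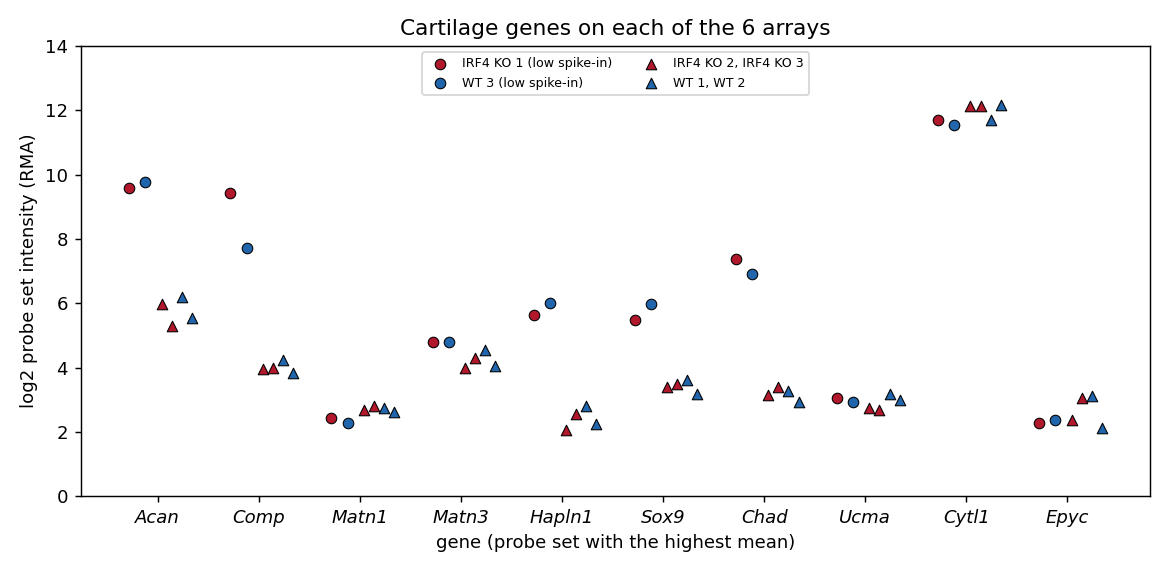
Log2 probe set intensity (RMA) of each of the 10 genes on the 6 arrays, with 1 probe set per gene, the one with the highest mean. Red marks IRF4 KO and blue marks WT, circles mark the 2 low spike-in arrays and triangles the other 4. The circles lie clear of the triangles for Acan, Comp, Hapln1, Sox9 and Chad, while Cytl1 lies between 11.53 and 12.18 on all 6 arrays.

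The adaptor proteins of the matrix included the largest difference among the members and also members with none of that kind. Comp, which encodes cartilage oligomeric matrix protein, a thrombospondin that binds collagen fibrils, was at 9.42 on IRF4 KO 1 and 7.72 on WT 3. On the other 4 arrays Comp lay between 3.84 and 4.24. The difference of the means was 4.57 log2 units, against values near the array medians. Chad, which encodes chondroadherin, a leucine-rich repeat protein to which chondrocytes attach, was at 7.38 on IRF4 KO 1 and 6.91 on WT 3, against 2.92 to 3.38 on the other 4 arrays. Its difference was 3.97 log2 units, again measured against values below the array medians.

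The matrilins, filament-forming proteins that connect collagen and aggrecan, did not follow Comp and Chad in size. Matn3 had 2 probe sets. On 1422148_at it was at 4.78 on IRF4 KO 1 and 4.80 on WT 3, against 3.98 to 4.55 on the other arrays, and on 1455948_x_at at 2.81 and 2.49, against 1.54 to 2.04. The low spike-in arrays were above the other 4 on both, by 0.57 and 0.91 log2 units on average, and the smallest gap between the sets was 0.23. Matn1, known from growth plate and tracheal cartilage, was at 2.42 on IRF4 KO 1 and 2.29 on WT 3. Its range on the other 4 arrays was 2.63 to 2.81, so that both low spike-in arrays were below all of them, by 0.36 on average. Matn1 was below the array median on every array.

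Sox9 was measured by 3 probe sets. On 1451538_at, the brightest, it was at 5.49 on IRF4 KO 1 and 5.97 on WT 3, against 3.41 and 3.48 on IRF4 KO 2 and IRF4 KO 3 and 3.62 and 3.18 on WT 1 and WT 2. The groups did not overlap, and the difference was 2.31 log2 units, with the other 4 arrays below their medians. On 1424950_at the difference was 1.84 and on 1433889_at it was 0.57, again with both low spike-in arrays above the other 4. The last of these lay below the array median on all 6 arrays.

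The remaining members are small secreted proteins and a small proteoglycan, and none of them was higher on all its probe sets on both low spike-in arrays. Ucma, which encodes a vitamin K-dependent protein of the upper growth plate, gave different pictures on its 2 probe sets. On 1428994_s_at it was at 2.35 on IRF4 KO 1 and 3.78 on WT 3, against 1.76 to 2.09 elsewhere. On 1428993_at the 2 low spike-in arrays, at 3.05 and 2.94, lay inside the range of the other 4, 2.69 to 3.19. WT 3 was thus farthest out on 1 probe set, and no array stood out on the other.

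Epyc, which encodes epiphycan, a small leucine-rich proteoglycan of growing cartilage, was at 2.27 on IRF4 KO 1 and 2.38 on WT 3, within the 2.13 to 3.11 of the other 4. Its highest values, 3.06 on IRF4 KO 3 and 3.11 on WT 1, stood on the 2 arrays with the highest medians over the whole table, 4.12 and 4.05. A link between the array median and Epyc was not tested. Cytl1, which encodes a secreted cytokine-like protein that promotes chondrocyte differentiation in mice, was the member that was bright everywhere. It was at 11.68 on IRF4 KO 1 and 11.53 on WT 3. The other 4 arrays were at 12.13 on IRF4 KO 2, 12.13 on IRF4 KO 3, 11.69 on WT 1 and 12.18 on WT 2. Both low spike-in arrays were below the other 4, though IRF4 KO 1 lay close to WT 1.

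Across the 17 probe sets, the low spike-in arrays minus the other 4 had a median of 1.39 log2 units, and the range was -0.42 to 4.57. Over all 45037 probe sets the median was -0.094. Of the 17, 10 were higher by 1 log2 unit or more, where 3.02% of all probe sets were, and 5 by 2 units or more, where 0.622% were. None was lower by 1 unit or more, as 0.278% of all probe sets were. Both low spike-in arrays were above all of the other 4 on 13 of the 17, as they were on 12.9% of all probe sets, and below all of them on 2 (Matn1 and Cytl1), as on 22.2%. Because the members were chosen by these very values, the counts describe them and support nothing, and no test was run. By gene, 6 of the 10 members were above on every probe set: Acan, Comp, Matn3, Hapln1, Sox9 and Chad.

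**Figure D2:**
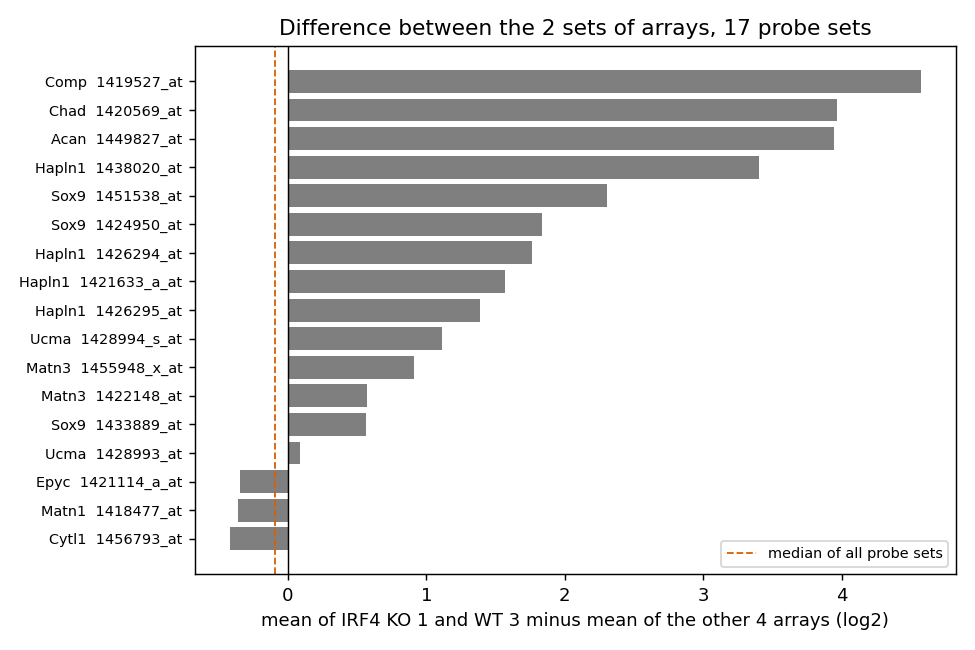
Mean of IRF4 KO 1 and WT 3 minus the mean of the other 4 arrays for each of the 17 probe sets, in log2 units, with the median of all probe sets (-0.094) as a dashed line. Comp, Chad, Acan and the brightest Hapln1 probe set lie above 3 log2 units, and Epyc, Matn1 and Cytl1 lie below 0.

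The comparison by genotype asks whether loss of IRF4 changes these genes in the injured artery. Acan averaged 6.95 ± 2.31 in IRF4 KO and 7.17 ± 2.28 in WT (SD, n = 3 each), a change of -0.22 with a 95% interval of -3.28 to 2.84. Comp averaged 5.78 ± 3.15 in IRF4 KO and 5.27 ± 2.13 in WT, a change of 0.51 (-3.06 to 4.09). Chad averaged 4.64 ± 2.38 in IRF4 KO and 4.36 ± 2.21 in WT, a change of 0.28 (-2.78 to 3.33). The spread within a genotype was far larger than the difference between genotypes for these genes, and each genotype held 1 of the 2 low spike-in arrays. The sign of the change followed which of them was left in: without IRF4 KO 1 it was -1.54 for Acan, -1.31 for Comp and -1.09 for Chad, and without WT 3 it was 1.08, 1.74 and 1.55.

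The dim or evenly expressed members had narrower intervals. Cytl1 averaged 11.98 ± 0.26 in IRF4 KO and 11.80 ± 0.34 in WT, a change of 0.18 (-0.35 to 0.72). Matn1 averaged 2.64 ± 0.20 in IRF4 KO and 2.55 ± 0.23 in WT, a change of 0.084 (-0.37 to 0.54). For these the intervals leave out a 2-fold difference (1 log2 unit) in either direction, with the reserve that RMA understates changes of dim genes such as Matn1.

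With limma over the 6 arrays, 0 of the 17 member probe sets had an adjusted p under 0.05 (the smallest was 0.99998), and 0% of all probe sets did. At an unadjusted p under 0.05 there were 0 of 17, where 1.74% of all probe sets (782) passed. Choosing genes that read high on 1 array of each genotype widens their spread within a genotype. Both counts were thus set in part by the choice of members and do not show that loss of IRF4 leaves these genes unchanged. The changes of the members ran from -0.42 (Ucma, 1428994_s_at) to 0.51 (Comp), with 7 higher and 10 lower in IRF4 KO and a median of -0.058, against 0.011 over all probe sets. On none of the 17 did the genotypes fail to overlap, where 5.99% of all probe sets were separated. Each genotype held 1 low spike-in array. Both of these arrays lay above all of the others on 13 of the 17 and below all of them on 2. On those probe sets the genotypes could not separate, so this count is no result about IRF4.

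Each set of arrays held both genotypes, so the genotypes were also compared within them. Between IRF4 KO 1 and WT 3, a single array each with no test, Acan differed by -0.19, Hapln1 (1438020_at) by -0.38 and Sox9 (1451538_at) by -0.48, while Chad differed by 0.48. Comp was the 1 member probe set higher by 1 log2 unit or more on IRF4 KO 1 (1.70), where 0.893% of all probe sets were. Ucma on 1428994_s_at was the 1 lower by as much (-1.43), where 1.12% were. Of the 17, 7 were higher and 10 lower on IRF4 KO 1 than on WT 3, with a median difference of -0.10.

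The other 4 arrays held both genotypes as well. There Acan was at 5.96 and 5.29 in IRF4 KO and 6.19 and 5.54 in WT, so that the genotypes overlapped. Comp, with 3.94 and 3.98 in IRF4 KO against 4.24 and 3.84 in WT, overlapped as well. The changes of the 17 probe sets ran from -0.37 to 0.50, with a median of -0.081. Over these 4 arrays 0 of 17 passed limma's adjusted threshold, where 0.0133% of all probe sets (6) did. The genotypes did not overlap on 2 of the 17, as on 29.4% of all probe sets. These were Hapln1 on 1421633_a_at, higher by 0.50 in IRF4 KO, and Ucma on 1428993_at, lower by 0.37 in IRF4 KO. For neither gene did the other probe sets show the same separation.

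With the set of arrays as a block in the fit of all 6, the intervals narrowed, and again 0 of 17 members and 0% of all probe sets passed (limma, smallest adjusted p of a member 0.999). Acan then had an interval of -0.76 to 0.32 around its change of -0.22, and Chad one of -0.14 to 0.70 around 0.28. The interval of Comp was -0.23 to 1.26 around 0.51, that of the brightest Sox9 probe set -0.59 to 0.31 around -0.14, and that of the brightest Hapln1 probe set -0.76 to 0.22 around -0.27. Within these limits, a 2-fold difference between the genotypes lies outside the interval for Acan, Chad, Hapln1 and Sox9 on those probe sets and inside it for Comp. The block was itself drawn from measured values, and the members were chosen for differing across it, so the narrowing was built in. Chad, Hapln1 and Sox9 lay below the array medians on the other 4 arrays, where RMA compresses differences. For these 3 genes a 2-fold difference in RNA is therefore not excluded. Nor is it for Acan, whose interval without the block was -3.28 to 2.84.

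**Figure D3:**
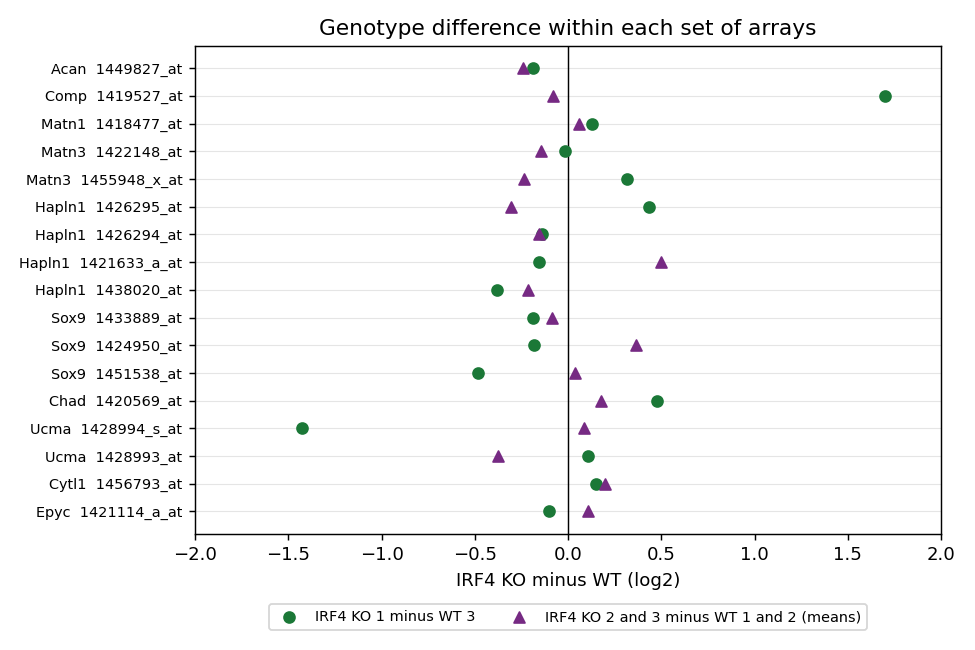
IRF4 KO minus WT in log2 units for each of the 17 probe sets, between IRF4 KO 1 and WT 3 (circles, 1 array each) and between the means of the other 4 arrays (triangles). Comp at 1.70 and Ucma 1428994_s_at at -1.43 are the only points beyond 1 log2 unit.

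The label was checked with other cartilage genes that are not members. Of 24 measured with 1 probe set each, 17 were above the other 4 arrays on both low spike-in arrays, where 17.4% of all 18193 genes were, and 15 were higher by 1 log2 unit or more, where 4.14% were. Col2a1, the main collagen of cartilage, was at 12.16 on IRF4 KO 1 and 12.07 on WT 3, against 3.75 to 5.15 on the other arrays. Cnmd, which encodes chondromodulin, an inhibitor of vessel growth in cartilage, was at 8.68 and 8.75, against 2.34 to 2.57. Col11a1 and Col9a1, collagens that join type II fibrils, were higher by 5.94 and 5.44 log2 units. Sox5, which encodes a partner of SOX9, was at 5.34 on IRF4 KO 1 and 4.75 on WT 3, against 3.76 to 4.66, while the related Sox6 lay at 5.87 and 6.35 within the range of the other 4, 5.73 to 6.50. These additional genes were picked with the earlier results known and the arrays are the same, so they are a description too. None of the 24 passed limma's adjusted threshold between the genotypes.

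Genes of other tissues and cells were read beside the cartilage genes on the same arrays. Of 10 macrophage markers, 6 were above the other 4 arrays on both low spike-in arrays, where 17.4% of all genes were, and the list mean was 7.43 on IRF4 KO 1 and 6.74 on WT 3, against 4.66 to 5.37. Csf1r, the receptor for a macrophage growth factor, was at 10.30 and 9.72, against 5.40 to 6.99, while Mertk, at 7.69 and 8.28, was not above all of the others. The part of these cells in the cartilage values was not tested. Of 8 osteoblast and mineralisation genes, 5 were above. Among them was Ibsp, which encodes bone sialoprotein, at 7.71 on IRF4 KO 1 and 5.64 on WT 3, against 1.54 to 2.24. Alpl, Sp7 and Mepe were not above, with differences of 0.37, 0.19 and -0.068. Runx2, Bglap, Spp1 and Enpp1 were listed too but had no probe set annotated to them alone. Of 8 osteoclast genes, 2 were above: Ctsk, a collagen-degrading protease, at 9.34 and 8.50, against 6.18 to 6.32, and Acp5, the acid phosphatase of osteoclasts, at 5.68 and 3.65, against 2.85 to 3.04. The other 6 were not, with differences from -0.42 (Mmp9, a gelatinase) to 0.039 (Ocstamp), and the list's median difference was -0.30. The osteoclast list mean was 4.07 on IRF4 KO 1 and 3.74 on WT 3, against 3.44 to 3.86.

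Proteoglycans of the vessel wall differed less evenly. Of 10, 4 were above on both low spike-in arrays, where 17.4% of all genes were. Lum, a fibril-binding proteoglycan, was at 12.37 on IRF4 KO 1 and 11.99 on WT 3, against 6.93 to 7.53. Dcn, which encodes decorin, was higher by 1.53 log2 units and Vcan, the main large proteoglycan of the arterial wall and a relative of Acan, by 1.24. Omd, which encodes osteomodulin, was higher by 0.80. Their list mean was 8.93 on IRF4 KO 1 and 8.83 on WT 3, against 7.88 to 8.22. The other genes of the list were not above, with differences from -0.59 to 0.62, and the list's median difference was 0.41.

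Organs that lie beside the carotid artery were checked through their markers, apart from cartilage. Over all genes, 17.4% were above the other 4 arrays on both low spike-in arrays. Of 12 airway epithelium markers, 1 was above (Cdh1, at 2.68 on IRF4 KO 1 and 2.95 on WT 3, against 1.83 to 2.45), and the list mean was 3.63 and 3.52, against 3.58 to 3.89. The secretory cell marker Scgb1a1 was at 2.44 on IRF4 KO 1 and 2.24 on WT 3, against 2.46 to 2.74, below the array median throughout. Of 6 thyroid markers, 10 skeletal muscle markers and 6 fat cell markers, 0 were above. Lists this short hold few such genes at the share of all genes, so the counts do not show that a tissue was absent. Their list means on the 2 low spike-in arrays were 3.23 and 3.20 for thyroid, 3.92 and 3.75 for skeletal muscle, and 3.10 and 3.28 for fat. On the other 4 arrays they were 3.24 to 3.67, 4.06 to 4.26 and 3.30 to 3.68. The airway, thyroid and fat list means lay below the array median on every array. Of 5 peripheral nerve markers, 3 were above, with S100b, which is also made by chondrocytes, at 5.24 and 5.33, against 3.61 to 3.99. The nerve list mean was 5.78 and 5.66, against 5.12 to 5.65.

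The labelled tissue was present on every array. The 10 smooth muscle markers had a list mean of 10.14 on IRF4 KO 1, against 10.62 and 10.52 on IRF4 KO 2 and IRF4 KO 3. It was 9.96 on WT 3, against 10.10 and 10.35 on WT 1 and WT 2. Of the 10, 0 were above the other 4 arrays on both low spike-in arrays, where 17.4% of all genes were. Both low spike-in arrays were below all of the others for 4 of the 10, counted with 1 probe set per gene. Over all probe sets the share below was 22.2%, and with 1 probe set per gene it was not computed. Des, an intermediate filament gene of muscle, was lower by 0.94 log2 units on those arrays, Actg2 by 0.62 and Cnn1 by 0.55.

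**Figure D4:**
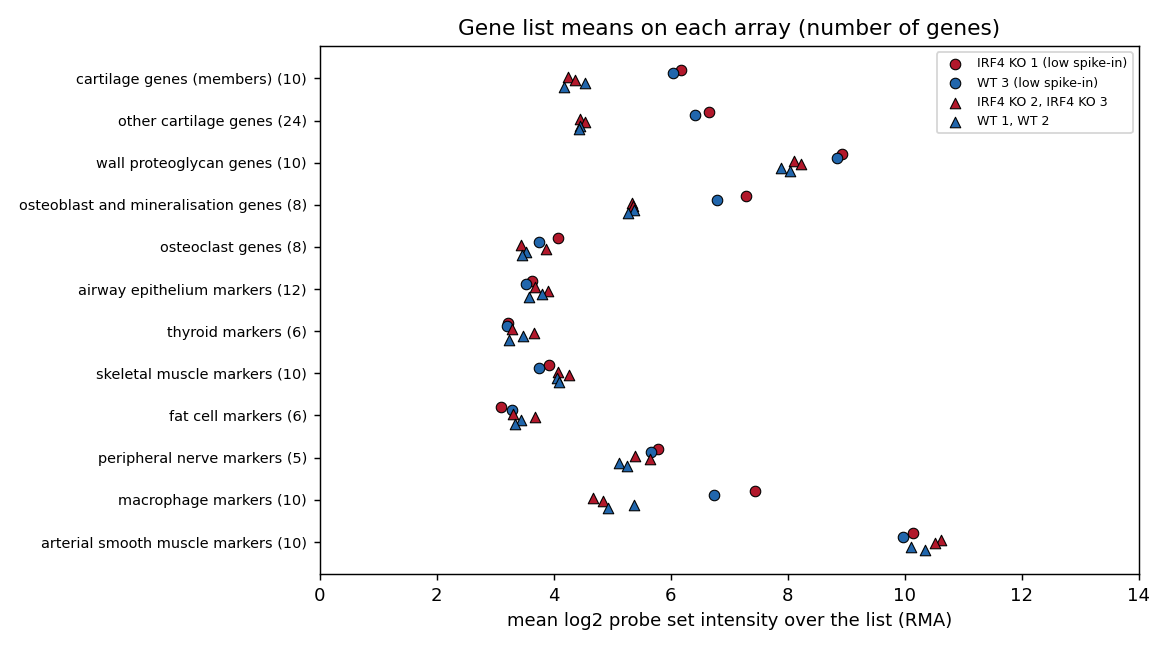
Mean log2 probe set intensity over each gene list on the 6 arrays, with the number of measured genes in brackets. Red marks IRF4 KO, blue marks WT, circles the 2 low spike-in arrays and triangles the other 4. The circles lie right of the triangles for the cartilage lists, the mineralisation list, the wall proteoglycans, the macrophages and, narrowly, peripheral nerve, and not for smooth muscle, airway, thyroid, skeletal muscle or fat.

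Technical measures also differed between the sets. The 18S ribosomal RNA controls averaged 4.81 on IRF4 KO 1 and 4.70 on WT 3, against 7.15 to 7.80 on the other arrays. The hybridisation controls averaged 9.22 and 9.41, against 9.78 to 11.48. The signal of the 3′ minus the 5′ probe set of actin was 1.43 on IRF4 KO 1 and 2.12 on WT 3, within the 1.54 to 3.12 of the other arrays for WT 3 and just below it for IRF4 KO 1. For Gapdh it was 1.52 on IRF4 KO 1 and 3.36 on WT 3, just below and just above the 1.59 to 3.35 of the other arrays. The part of these differences in the cartilage values was not tested. After subtracting each array's median, 11 of the 17 probe sets were higher by 1 log2 unit or more and 13 were above the other 4 arrays. Their median was 1.48, against -0.0056 over all probe sets. After quantile normalization the counts were 11 and 13, with a median of 1.52, against -0.046 over all probe sets. As deposited, 3.02% of all probe sets were higher by as much and 12.9% were above. After median subtraction or quantile normalization these shares were not computed. The members were chosen by their values on these arrays, so the counts describe them and support nothing. Cytl1 was no longer below all of the other 4 arrays after median subtraction (-0.33 on average) and was after quantile normalization (-0.42).

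The members were not alike in pattern. Likeness was measured as the root mean square difference, in log2 units over the 6 arrays, between 2 genes' values after each gene's own mean was taken off. Among the members that were high on the low spike-in arrays, Acan and Chad were nearest to each other (0.38), followed by Chad and Hapln1 (0.41) and Acan and Hapln1 (0.43). Comp was nearest to Chad (0.47). The 10 genes outside the list that came nearest to the median pattern of the members were Iqgap2 (0.073), Adamts12, Arhgap11a, P2ry10, Cebpd, Pdzrn4, Prc1, Myo1g, Rnf152 and Pcdh18 (0.14). Iqgap2 was at 4.44 on IRF4 KO 1 and 4.64 on WT 3, against 2.77 to 3.04 elsewhere.

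Taken singly, the gene nearest to Acan was Tnc, which encodes the matrix protein tenascin C (0.34), with 9.36 on IRF4 KO 1 and 8.86 on WT 3, against 4.69 to 5.22. The nearest to Comp was C1qa, a complement gene (0.21), at 9.16 on IRF4 KO 1 and 7.53 on WT 3, against 3.68 to 4.25. Chad was nearest to Cd53 (0.15), Hapln1 to Cytip (0.17) and Sox9 to Spc25 (0.14). Matn3 was nearest to Tnfsf9 (0.063), Matn1 to Krt14 (0.035), Ucma to Rpl35 (0.043), Cytl1 to Rpp40 (0.059) and Epyc to Dnaaf4 (0.038), all of them patterns of small range. These distances over 6 arrays, 2 of which set most of the variation, are a description and carry no test.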

How the data were processed

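The authors deposited log2 probe set intensities. Per the submitters' processing notes, Affymetrix Expression Console and RMA produced them, with versions and options not stated in the sources used here. The platform annotation named the probe sets: 34958 of 45101 had 1 symbol, 932 several and 9211 none there. Entrez numbers matched 34754 of the named ones in a RefSeq table (GRCm38.p6), which changed 0 symbols. The 64 control probe sets were left out of the tests.

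The genotypes were compared by a two-sided moderated test (limma 3.58.1, R 4.3.3, lmFit and eBayes without covariates) over all 45037 other probe sets, with Benjamini-Hochberg adjusted p under 0.05. Changes are IRF4 KO minus WT, with 95% intervals from the moderated fit. No dim probe set was removed. The fit was tested on simulated data. Members, gene lists and the naming rule were chosen with earlier results of these data known. That rule took all members, up to 4 genes per other list with the largest difference between the sets of arrays, and the nearest genes by root mean square difference. Sox5, Sox6, Mertk, Scgb1a1, Ocstamp, Alpl, Sp7 and Mepe fell outside it and were chosen after their values were seen. The 2 low spike-in arrays were set apart by measured values, so their differences carry no test. Where a gene stands once, its brightest probe set on average was used. Nothing in the labels says that the 3 arrays of a genotype came from separate litters or days, so p-values measure only the spread between these pools. The number of arrays limits the precision.

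Alternatives were a replicate block, the set of arrays as a block, leaving out both low spike-in arrays or each array in turn, 1 value per gene, a filter on dim probe sets, median subtraction, quantile normalization, a robust trend, array weights and other thresholds.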

Additional observations from a re-analysis of the deposited data

How the results depend on the processing

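No member probe set passed the adjusted threshold under any alternative run. Over all probe sets the count of 0 became 6 without both low spike-in arrays, 69 with array weights (whose estimation stopped before it converged) and 782 at an unadjusted p under 0.05, and it lay between 0 and 4 when 1 array was left out, with the 4 appearing without IRF4 KO 1; the cause was not tested. A replicate block also gave 0. Same-numbered arrays of the 2 genotypes had deviations from their genotype means that correlated at -0.51, 0.31 and -0.59 (replicates 1, 2 and 3). The 2 low spike-in arrays carry different numbers, which by itself lowers the first and last of these. The correlations therefore cannot tell whether same-numbered arrays were handled together. The block changed no call.

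The sign of a member's uncalled genotype change was not fixed. Leaving out 1 array gave -1.54 to 1.08 for Acan, -1.31 to 1.74 for Comp, -1.09 to 1.55 for Chad, -0.047 to 0.19 for Matn1, -0.21 to 0.32 for Epyc and -0.80 to 0.20 for Ucma 1428994_s_at. For Matn3 it gave -0.32 to 0.086 on 1422148_at and -0.45 to 0.19 on 1455948_x_at. For Hapln1 it gave -0.14 to 0.91 on 1421633_a_at, -0.74 to 0.44 on 1426294_at, -0.64 to 0.32 on 1426295_at and -1.38 to 0.89 on 1438020_at. For Sox9 it gave -0.34 to 0.88 on 1424950_at, -0.29 to 0.086 on 1433889_at and -0.82 to 0.72 on 1451538_at. Without both low spike-in arrays Comp turned to -0.081, Sox9 1451538_at to 0.038 and Ucma 1428994_s_at to 0.086. With array weights Comp turned to -0.25, Chad to -0.16 and Sox9 1424950_at to -0.15, and with median subtraction Epyc turned to -4.07e-05. Cytl1 and Ucma 1428993_at kept their sign in every fit run.

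The median difference between the sets of arrays over the members, 1.39, lay between 1.28 and 1.64 when 1 array was left out, and was 1.16 with a gene's probe sets averaged. A filter on dim probe sets left 7 members, 3 of which passed it only through the low spike-in arrays, so that its median of 2.31 and its counts are set in part by the filter and support nothing. The 10 probe sets higher by 1 log2 unit or more became 5 of 10 with the highest probe set of a gene, 5 of 10 with the mean, 5 of 7 with the filter and 5 of 17 at 2 log2 units. The 13 above the other 4 arrays became 6 of 10, 7 of 10 and 6 of 7. Fewer features were counted there, and Hapln1 and Sox9 each had 1 value in the counts by gene. With the highest probe set of a gene, 4.14% of all 18193 genes were higher by 1 log2 unit or more and 17.4% were above. At 2 log2 units the share of all probe sets was 0.622%. For the mean and the filter the shares were not computed. Signal limits what the dim members can show: 10 of the 17 probe sets had a mean below the median of all probe set means, where RMA compresses differences.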
